A study of Homo sapiens with 6 samples.

Results

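The genes described here are reference genes of the NanoString PanCancer Progression Panel, genes of RNA processing and general cell maintenance that a panel of this kind carries so that samples can be put on a common scale. They were chosen by symbol from a list of 35 names, with no measured value used in the choice, and 29 of the 35 were among the 770 genes of the deposited table. PIAS1, VPS33B, PIK3R4, RBM45, TTC31 and SLC4A1AP, the other 6, were not analysed here. No entry of the table is marked as a reference gene, so the name rests on the list of symbols alone.

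Total RNA, 100 ng per sample, was measured in 3 samples of HCT116 WT, a human colorectal carcinoma cell line, and 3 samples of HCT116 p21-/-, a derivative of it in which CDKN1A, the gene of the cell cycle inhibitor p21, is disrupted. Neither line was treated, and the samples of each line are labelled as biological replicates. The p21-/- cells are a derived line, and the labels speak of clones without giving how many were used, so a property of the clone cannot be told apart from the loss of p21. The labels give RPMI medium for both lines, whereas the study's methods give DMEM with added pyruvate for the p21-/- cells and RPMI for the WT cells, and medium and genotype cannot be told apart if the methods apply.

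On this platform a transcript is counted through a fluorescent barcode on a probe pair, without amplification. The count of each gene then depends on how much RNA was hybridized and how well, and reference genes serve to remove that difference: every value of a sample is multiplied by the factor that gives its reference genes the same geometric mean as in the other samples. The genes used for this are ordinary members of basic machineries, among them the spliceosome, which removes introns from pre-mRNA, the CCR4-NOT complex, which shortens poly(A) tails, and the nucleolus, in which ribosomes are assembled. Their use rests on the premise that they are transcribed at the same level in the compared cells.

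CDKN1A had 4701 ± 834 normalized counts (SD, n = 3) in WT and 419 ± 37.0 (SD, n = 3) in p21-/- samples, a log2 fold change of -3.48 (SE 0.118, limma with Benjamini-Hochberg adjustment, adjusted p = 6.51e-13), in the direction of the labels. Low values of the table had been replaced by a floor for each sample, between 25.7 and 34.9 counts, and none of the 29 reference genes was at the floor in any sample, against 324 of the 770 genes with at least 1 floor value. Total barcode counts over genes above the floor were 867421 to 1187905 in WT and 1125125 to 1335466 in p21-/- samples. Of the epithelial markers listed for a check of the cell type, 7 of 14 were in the table and none was at the floor throughout a line, with EPCAM at 5692 ± 377 normalized counts (SD, n = 3) in WT and 6612 ± 358 (SD, n = 3) in p21-/- samples, although 4 of the 7, CDH1, CLDN4, CLDN7 and KRT19, fell. Both leukocyte markers in the table, PTPRC and ITGAM, were at the floor in all 6 samples, as were all 4 endothelial and 6 of 7 fibroblast markers in the WT samples, COL1A1 being the exception. In p21-/- samples 3 of the 4 and 2 of the 7 were at the floor throughout, COL1A1 fell, and PDGFRB, at the floor in all WT samples, had 55.0, 43.7 and 52.2 normalized counts in p21-/- samples (adjusted p = 0.00376).

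The reference genes did not move together between the lines. In the deposited values 18 of the 29 were higher in p21-/- than in WT cells, 3 were lower, and 8 did not pass an adjusted p of 0.05 (limma on log2(value + 1), fitted on all 770 genes, two-sided, with Benjamini-Hochberg adjustment). Of all 770 genes 47.8% passed, 21.8% higher and 26.0% lower. Many of the 770 genes lie at the floor and could hardly pass, so the 417 other genes above the floor in all samples are the closer background, and of these 70.0% passed, 28.1% higher and 42.0% lower, against 72.4%, 62.1% and 10.3% of the reference genes. The median log2 fold change was 0.40 for the reference genes, -0.15 for those 417 genes and -0.12 for all 770. The last is also the log2 fold change of genes at the floor in all 6 samples, such as PTPRC, and describes the floors of the lines. The values of the 2 lines did not overlap for 26 of the 29, 21 of them higher and 5 lower in p21-/-, which is 89.7%, against 76.5% of the 417 genes and 52.2% of all 770. The exceptions were SAP130, TLK2 and AMMECR1L.

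**Figure D1:**
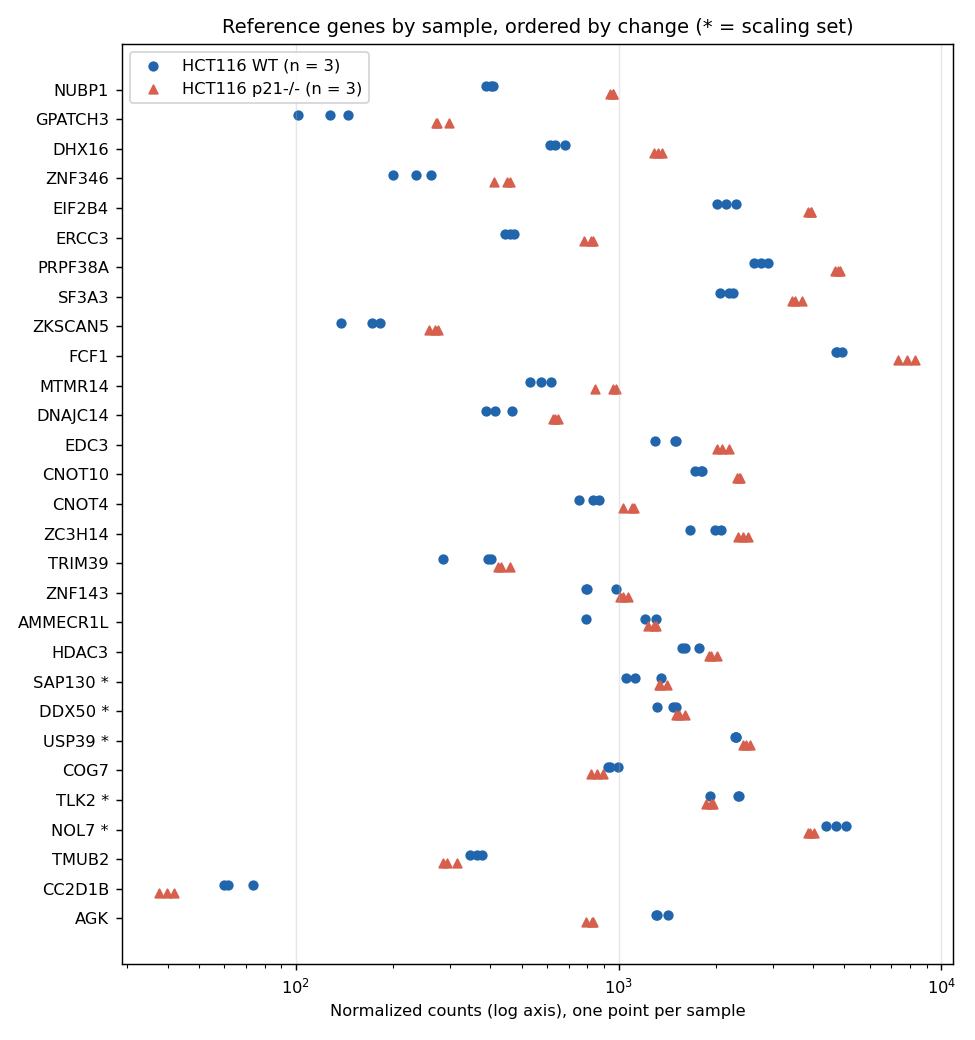
Normalized counts of the 29 reference genes (x axis, log scale) in the 3 HCT116 WT samples (circles) and the 3 HCT116 p21-/- samples (triangles), 1 point per sample, with genes ordered by their log2 fold change from NUBP1 at the top (1.25) to AGK at the bottom (-0.72). The triangles lie to the right of the circles in most of the upper rows and to the left in the lowest, and overlap the circles for SAP130, TLK2 and AMMECR1L only; an asterisk marks the 5 genes with a constant geometric mean.

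Which genes the deposited scaling was made with could be read from the values. The description deposited with the samples gives the geometric mean of 30 housekeeping genes. The geometric mean of the 29 found here was not constant, being 849, 881 and 895 in the 3 WT samples in the order of their replicate numbers and 1150, 1145 and 1138 in the 3 p21-/- samples, which is 1.31-fold higher in p21-/-. All 6474511 subsets of 2 to 8 of the 29 genes were searched for a geometric mean that did not change between samples. USP39, NOL7, DDX50, SAP130 and TLK2 together had a geometric mean of 2088 in all 6 samples, with a range of 2.85e-06 on the log2 scale. The next subset of any size had a range of 0.00786, and the next subset of 5 genes a range of 0.0167. The value of 2088 also equalled the mean over the 6 samples of the geometric mean that these 5 genes had after scaling to the positive controls alone (2088 counts). The 5 genes are thus set to a mean change of 0 between the lines by the scaling itself, and their own tests are not independent of it.

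**Figure D2:**
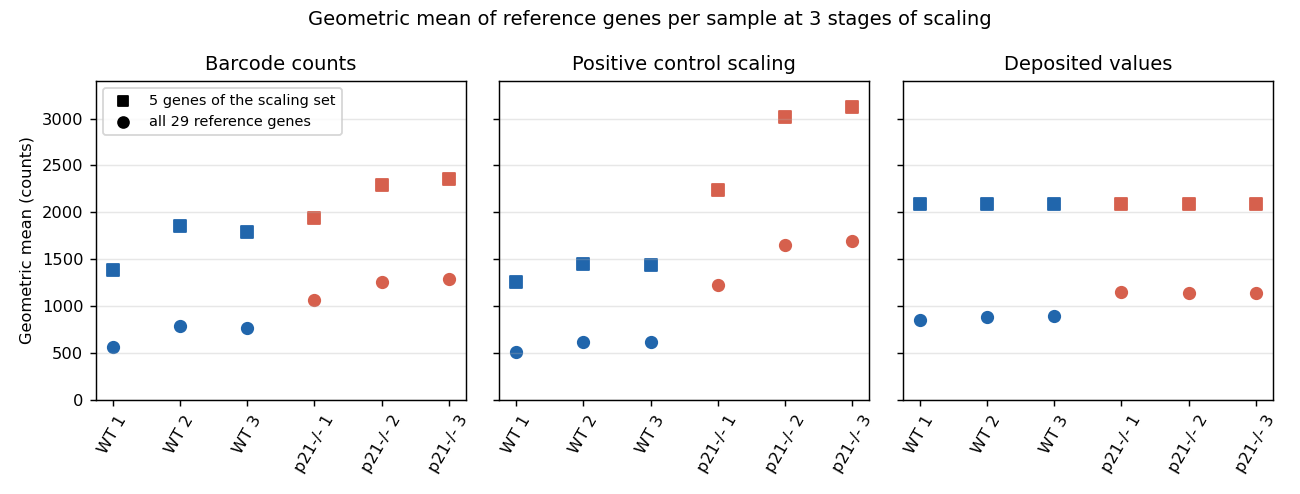
Geometric mean of the 29 reference genes (circles) and of the 5 genes USP39, NOL7, DDX50, SAP130 and TLK2 (squares), in counts, for each of the 3 WT (blue) and 3 p21-/- (red) samples as barcode counts, after scaling to the positive controls, and as deposited. The squares are level at 2088 in the deposited values only, where the circles still step up from between 849 and 895 in WT to between 1138 and 1150 in p21-/- samples.

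USP39, a component of the spliceosomal tri-snRNP, had 2301, 2285 and 2314 normalized counts in WT and 2488, 2555 and 2431 in p21-/- samples, here and below in the order of the replicate numbers. Its p21-/- samples were all above its WT samples by a small margin (log2 fold change 0.11, 95% interval -0.06 to 0.28, adjusted p = 0.295). DDX50, a DEAD-box RNA helicase of the nucleolus, had 1315, 1504 and 1469 in WT and 1509, 1538 and 1601 in p21-/- samples, which likewise did not pass (log2 fold change 0.12, adjusted p = 0.352, and 0.06 without WT replicate 1). With scaling to all 29 genes USP39 and DDX50 were called lower, each at -0.27 (adjusted p = 0.00397 and 0.00612), and with positive control scaling both were called higher, at 1.11 and 1.12. SAP130, a subunit of the Sin3 corepressor complex, had 1355, 1123 and 1051 in WT and 1338, 1338 and 1415 in p21-/- samples, with WT replicate 1 inside the p21-/- range. It did not pass (log2 fold change 0.22, adjusted p = 0.10), but did without WT replicate 1 (0.33, adjusted p = 0.000652).

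TLK2, a kinase of chromatin assembly factors, had 1918, 2344 and 2361 in WT and 1960, 1926 and 1869 in p21-/- samples, again with WT replicate 1 inside the range of the other line. It too did not pass (log2 fold change -0.20, adjusted p = 0.110), but did without WT replicate 1 (-0.29, adjusted p = 0.000765) and with scaling to all 29 genes (-0.58, adjusted p = 4.23e-05), and it passed in the other direction with positive control scaling (0.80, adjusted p = 0.000459). NOL7, a nucleolar protein, was the only gene of the 5 that passed the test in the deposited scaling with all samples. It fell from 5049, 4388 and 4707 in WT to 4034, 3922 and 3861 in p21-/- samples (log2 fold change -0.26, SE 0.0826, adjusted p = 0.0162), with no overlap. The call was lost in 6 other settings, among them without p21-/- replicate 2 (adjusted p = 0.0731) or 3 (adjusted p = 0.0941), and the sign turned in 3 more scalings. Within the set, then, 3 genes had a higher mean in p21-/- and NOL7 and TLK2 a lower one.

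Before any scaling these 5 genes gave more barcodes in p21-/- samples. Their barcode counts had geometric means of 1386, 1859 and 1786 in WT and 1936, 2294 and 2360 in p21-/- samples, 1.32-fold higher. The positive controls, synthetic targets added in equal amounts to each reaction, moved the other way, with geometric means of 1601, 1861 and 1806 in WT and 1261, 1107 and 1102 in p21-/- samples. Scaled to the positive controls alone, the 5 genes were at 1260, 1455 and 1440 in WT and 2236, 3020 and 3119 in p21-/- samples, 2.00-fold higher, and all 29 reference genes at 512, 614 and 617 in WT and 1231, 1656 and 1700 in p21-/- samples, 2.61-fold higher. The part that RNA input, hybridization and the RNA content of the cells have in these differences was not tested.

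Of the 24 reference genes outside this set, 20 passed the test, 18 higher and 2 lower in p21-/-, with a median log2 fold change of 0.58. Of the 417 other genes above the floor 70.0% passed, 28.1% higher and 42.0% lower, with a median of -0.15. Together they had a geometric mean of 704, 736 and 750 in WT and 1015, 1010 and 1003 in p21-/- samples, 1.38-fold higher.

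The 4 spliceosome genes were all higher on average in p21-/- cells in the deposited scaling, and 3 of them passed, USP39 alone turning lower with scaling to all 29 genes. PRPF38A, a factor of spliceosome activation, had 2620, 2760 and 2902 normalized counts in WT and 4837, 4696 and 4795 in p21-/- samples, a 1.73-fold rise (log2 fold change 0.79, SE 0.0802, adjusted p = 4.18e-07). SF3A3, a subunit of the SF3a complex of the U2 snRNP, had 2268, 2053 and 2195 in WT and 3700, 3530 and 3444 in p21-/- samples, a 1.64-fold rise (log2 fold change 0.71, SE 0.0826, adjusted p = 1.88e-06). DHX16, the DEAH-box helicase that remodels the spliceosome before splicing catalysis, went from 633, 611 and 683 in WT to 1322, 1362 and 1289 in p21-/- samples, a 2.06-fold rise (log2 fold change 1.04, SE 0.0959, adjusted p = 1.48e-07). USP39, described above, was the member that did not pass. The spread between replicates was small beside the distance between the lines in each of the 3 that rose.

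All 4 genes of mRNA decay and the poly(A) tail rose, by similar amounts, with log2 fold changes between 0.36 and 0.55. CNOT10, a subunit of the CCR4-NOT deadenylase complex, had 1801, 1806 and 1720 normalized counts in WT and 2374, 2329 and 2355 in p21-/- samples (log2 fold change 0.41, SE 0.0814, adjusted p = 0.0005). CNOT4, a ubiquitin ligase that associates with that complex, had 752, 872 and 835 in WT and 1034, 1099 and 1117 in p21-/- samples (log2 fold change 0.40, adjusted p = 0.00254). EDC3, an enhancer of mRNA decapping, had 1297, 1504 and 1496 in WT and 2085, 2195 and 2023 in p21-/- samples (log2 fold change 0.55, adjusted p = 7.87e-05). ZC3H14, a zinc finger protein that binds poly(A), had 1658, 2070 and 1988 in WT and 2523, 2434 and 2344 in p21-/- samples (log2 fold change 0.36, adjusted p = 0.00497). When each sample was scaled to the geometric mean of all 29 reference genes, none of the 4 passed, CNOT10 and CNOT4 had a log2 fold change of 0.02 each, and ZC3H14 turned to -0.03.

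The 3 nucleolar genes split. FCF1, a factor of small-subunit ribosomal RNA processing, rose from 4926, 4752 and 4705 normalized counts in WT to 7328, 7794 and 8292 in p21-/- samples (log2 fold change 0.70, SE 0.0812, adjusted p = 1.87e-06), whereas NOL7 was called lower, within the limits given above, and DDX50 did not pass. EIF2B4, the delta subunit of the exchange factor that recharges eIF2 for translation initiation, rose from 2018, 2305 and 2147 in WT to 3933, 3936 and 3852 in p21-/- samples, 1.81-fold (log2 fold change 0.86, SE 0.0831, adjusted p = 2.55e-07). No WT sample of either came near the p21-/- samples.

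Of the 6 genes of transcription and chromatin 4 rose and 2, SAP130 and TLK2, did not pass. ERCC3, the XPB helicase of the transcription and repair factor TFIIH, had 460, 445 and 475 normalized counts in WT and 830, 823 and 783 in p21-/- samples, a 1.76-fold rise (log2 fold change 0.82, SE 0.104, adjusted p = 5.32e-06). ZKSCAN5, a zinc finger protein of the KRAB family, had 172, 182 and 138 in WT and 258, 275 and 269 in p21-/- samples (log2 fold change 0.71, adjusted p = 0.000984), a call that was lost with scaling to all 29 genes (0.33, adjusted p = 0.0599). The rises of HDAC3, a histone deacetylase of corepressor complexes, and of ZNF143, a sequence-specific transcription activator, were near the threshold. HDAC3 had 1572, 1609 and 1778 in WT and 2017, 1939 and 1908 in p21-/- samples (log2 fold change 0.24, adjusted p = 0.0301), and ZNF143 had 790, 984 and 798 in WT and 1066, 1007 and 1033 in p21-/- samples (log2 fold change 0.28, adjusted p = 0.0410). Each call was lost in 8 of the other settings tried, and both log2 fold changes turned negative with scaling to all 29 genes, at -0.14 and -0.11.

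Among the 4 genes of membrane trafficking and phosphoinositides the changes ran in both directions. MTMR14, a phosphoinositide phosphatase, rose from 576, 530 and 616 normalized counts in WT to 963, 847 and 978 in p21-/- samples (log2 fold change 0.69, SE 0.108, adjusted p = 4.5e-05), and DNAJC14, a J-domain co-chaperone of the endoplasmic reticulum, from 387, 415 and 467 to 628, 651 and 636 (log2 fold change 0.60, adjusted p = 0.000347). The call of DNAJC14 was lost with scaling to all 29 genes (0.21, adjusted p = 0.0660). COG7, a subunit of the Golgi tethering complex COG, had 924, 941 and 993 in WT and 818, 893 and 857 in p21-/- samples, which did not pass although the lines did not overlap (log2 fold change -0.15, 95% interval -0.36 to 0.05, adjusted p = 0.229). CC2D1B, a protein that binds the ESCRT-III membrane remodelling machinery, fell from 73.8, 61.8 and 59.6 in WT to 37.8, 41.9 and 39.8 in p21-/- samples (log2 fold change -0.69, SE 0.160, adjusted p = 0.00164). Its p21-/- values lay just above the floors of those samples, which were 33.8, 25.7 and 31.4, and the fall rests on few barcodes, 35, 46 and 45 in p21-/- against 49, 55 and 51 in WT samples before scaling. The call of CC2D1B was lost with median scaling (-0.37, adjusted p = 0.0605) and with barcode counts (-0.30, adjusted p = 0.215), and its sign turned with positive control scaling (0.29).

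ZNF346 and GPATCH3, grouped as other RNA-binding or RNA-associated proteins, both rose by about 1 on the log2 scale. ZNF346, a zinc finger protein that binds double-stranded RNA, went from 235, 200 and 262 normalized counts in WT to 450, 411 and 461 in p21-/- samples (log2 fold change 0.93, SE 0.140, adjusted p = 3.27e-05). GPATCH3, a protein with a G-patch domain, went from 145, 101 and 127 to 299, 274 and 272 (log2 fold change 1.19, SE 0.165, adjusted p = 1.44e-05).

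In the deposited values of all 6 samples the largest rise and the largest fall were in NUBP1 and AGK, which are outside RNA processing. In some other settings GPATCH3 rose more or CC2D1B fell more. NUBP1, a scaffold of cytosolic iron-sulfur cluster assembly, had 387, 409 and 403 normalized counts in WT and 957, 959 and 938 in p21-/- samples, a 2.38-fold rise (log2 fold change 1.25, SE 0.103, adjusted p = 3.74e-08). AGK, a lipid kinase of mitochondria, had 1318, 1309 and 1417 in WT and 791, 832 and 825 in p21-/- samples, and was 1.65-fold lower in p21-/- (log2 fold change -0.72, SE 0.0922, adjusted p = 5.42e-06). The barcode counts of AGK before scaling were 875, 1165 and 1212 in WT and 733, 914 and 932 in p21-/- samples, where WT replicate 1 lay inside the p21-/- range and the change did not pass (log2 fold change -0.33, adjusted p = 0.342). With positive control scaling its sign turned (0.27, adjusted p = 0.278).

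The other 3 of this group did not pass. TRIM39, a RING-type ubiquitin ligase, had 285, 394 and 402 normalized counts in WT and 462, 432 and 424 in p21-/- samples (log2 fold change 0.30, 95% interval -0.01 to 0.61, adjusted p = 0.105). Without WT replicate 1 its log2 fold change was 0.14, and it passed without WT replicate 2 (0.37, adjusted p = 0.0423) or 3 (0.39, adjusted p = 0.0407). TMUB2, a transmembrane protein with a ubiquitin-like domain, had 347, 377 and 365 in WT and 315, 294 and 285 in p21-/- samples (log2 fold change -0.28, adjusted p = 0.0814), and passed without WT replicate 1 (-0.32, adjusted p = 0.0290). AMMECR1L had 791, 1301 and 1203 in WT and 1285, 1302 and 1233 in p21-/- samples (log2 fold change 0.25, adjusted p = 0.200). Without WT replicate 1, its lowest sample, the log2 fold change of AMMECR1L was 0.02, and without WT replicate 2 it was 0.38 and passed (adjusted p = 0.0159).

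The size of the change in the reference genes as a group, and the direction of single genes, depended on the scaling, while the median stayed above 0 in each setting tried. With each sample scaled to the geometric mean of all 29 genes, 10 were called higher and 8 lower, beside 12.5% higher and 69.0% lower of all 770 genes, and their median log2 fold change was 0.02, close to 0 by construction. With scaling to the positive controls 27 of the 29 were called higher by limma and 0 lower, beside 78.6% and 7.79% of all genes. All 29 log2 fold changes were above 0 there, including those of AGK and CC2D1B, the 2 that did not pass, at 0.27 and 0.29. With median scaling 23 were called higher and 1, AGK, lower, beside 38.3% and 19.1%. The median log2 fold change over all 770 genes itself moved with the scaling, from -0.12 as deposited to -0.49, 0.59 and 0.20 in these 3 settings. The median of the reference genes was above that of all genes in each of them. These shares and medians of all 770 genes include the 324 with a floor value, which a scaling moves as well, so they are a loose background. For the 417 other genes above the floor the median was -0.53 with scaling to all 29 genes. The order of the reference genes among themselves hardly depends on the scaling, since a factor per sample shifts every gene of that sample alike.

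**Figure D3:**
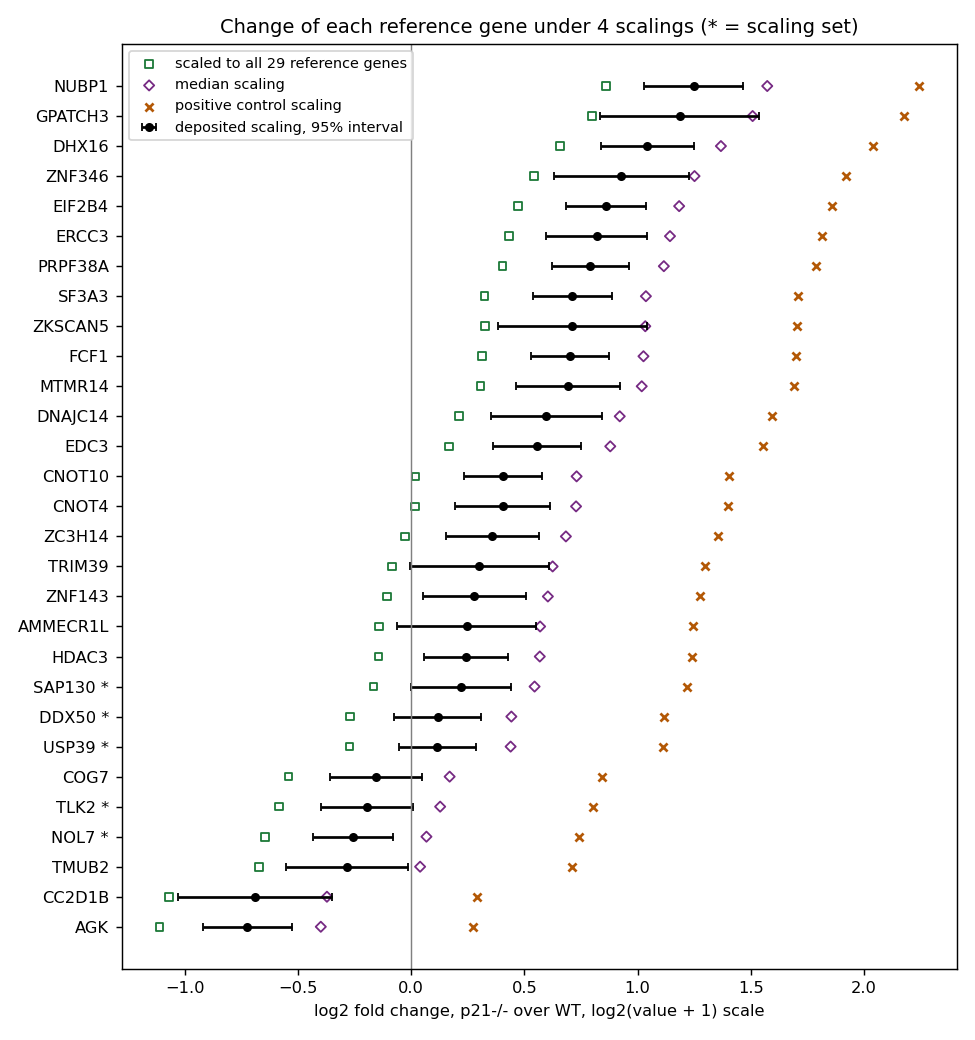
Log2 fold change of each reference gene, p21-/- over WT on the log2(value + 1) scale (x axis), in the deposited scaling with its 95% interval (filled circles and bars) and after scaling to all 29 reference genes (squares), to the median of each sample (diamonds) and to the positive controls (crosses). The 4 marks keep nearly the same distances in every gene, and the choice of scaling moves all genes together, so that NUBP1 is above 0 in all 4 (0.86 to 2.25) while AGK is below 0 in 3 of them and at 0.27 with positive control scaling.

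A total of 10 reference genes kept the call and the direction of the deposited scaling under each of the 24 other settings tried. These were NUBP1, GPATCH3, DHX16, ZNF346, EIF2B4, ERCC3, PRPF38A, SF3A3, FCF1 and MTMR14, all higher in p21-/-. With positive control scaling all 29 log2 fold changes were above 0, so none of the 29 could keep a call of lower. The shared direction of these genes thus follows from the settings tried. Called higher throughout were 34.5% of the 29, beside 59 of the 417 other genes above the floor and 12.2% of all 770 genes. Called lower throughout were 0 of the 29, 46 of those 417 and 7.79% of all 770. The log2 fold changes of the 10 reference genes were between 0.69 and 1.25 as deposited, and between 0.31 and 0.86 after scaling to all 29 genes.

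Ratios of genes within a sample do not depend on the scaling between samples, apart from the pseudocount of 1, so the reference genes were also compared in pairs. Of the 406 pairs, 305 had log2 ratios that did not overlap between the lines, 75.1%, beside 78.7% of the 86736 pairs among the other 417 genes above the floor. By this count pairs of reference genes separated the lines about as often as pairs of other genes did. The shifts were smaller, however: the log2 ratio moved by more than 1 in 66 pairs, 16.3%, against 44.7% of the other pairs, and the median SD of a log2 ratio over the 6 samples was 0.310 against 0.532. Pairs share genes and are not independent, and these shares are a description.

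The widest shift was that of AGK against NUBP1. The log2 ratio of AGK to NUBP1 was 1.77, 1.68 and 1.81 in WT but -0.27, -0.21 and -0.19 in p21-/- cells, a shift of -1.97. The steadiest pair was PRPF38A and ERCC3, with log2 ratios of 2.51, 2.63 and 2.61 in WT and 2.54, 2.51 and 2.61 in p21-/- samples (SD 0.0548 over the 6 samples). EDC3 with DNAJC14 (SD 0.0678), SF3A3 with ERCC3 and PRPF38A with EIF2B4 (SD 0.0704 each) and USP39 with DDX50 (SD 0.0807) followed. All of these but USP39 and DDX50 pair genes that rose by like amounts. Within the scaling set the log2 ratio of USP39 to DDX50 shifted by -0.003, and 5 of the 10 pairs of the set did not overlap between the lines, a smaller share than among all 406 pairs. A fixed geometric mean makes the genes of the set offset each other, so nothing is read from this count.

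**Figure D4:**
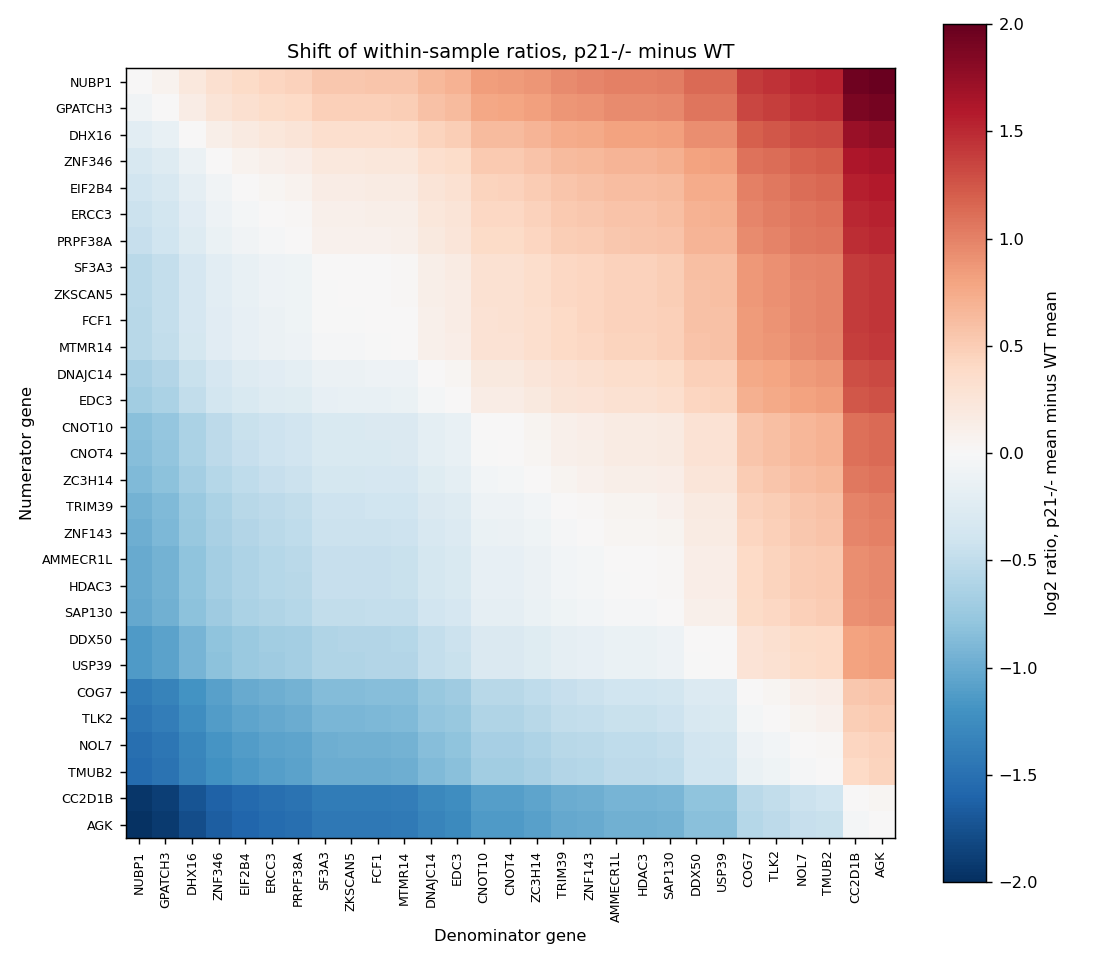
Shift of the log2 ratio of each pair of reference genes between the lines, p21-/- mean minus WT mean, as colour (red above 0, blue below), with the numerator gene in rows and the denominator gene in columns, both ordered by log2 fold change. The corners that set NUBP1 and GPATCH3 against AGK and CC2D1B reach almost 2 in size, whereas the block from SF3A3 to MTMR14 is near 0.

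The mean SD of a gene's log2 ratios to the other 28 genes shows how closely it moved with them over the 6 samples, not whether its level was constant. This mean SD was lowest in CNOT10 (0.266), CNOT4 (0.266) and EDC3 (0.273), which lie in the middle of the order of changes. As deposited these 3 rose, with log2 fold changes of 0.41, 0.40 and 0.55. The mean SD was highest in AGK (0.644), CC2D1B (0.642) and GPATCH3 (0.513), which lie at the ends of that order. The 5 genes of the scaling set ranked 10 (USP39), 11 (DDX50), 16 (SAP130), 22 (TLK2) and 24 (NOL7) of 29. The median over the 29 genes was 0.320 over all samples, 0.147 over the WT samples alone and 0.0630 over the p21-/- samples alone. The WT replicates were thus less alike than the p21-/- replicates in these genes: the SD of log2 values was larger in WT for 24 of the 29, with medians of 0.103 in WT and 0.0450 in p21-/-. The same was true of the other genes above the floor, where 358 of 417 had the larger SD in WT, with medians of 0.163 and 0.0656.

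**Figure D5:**
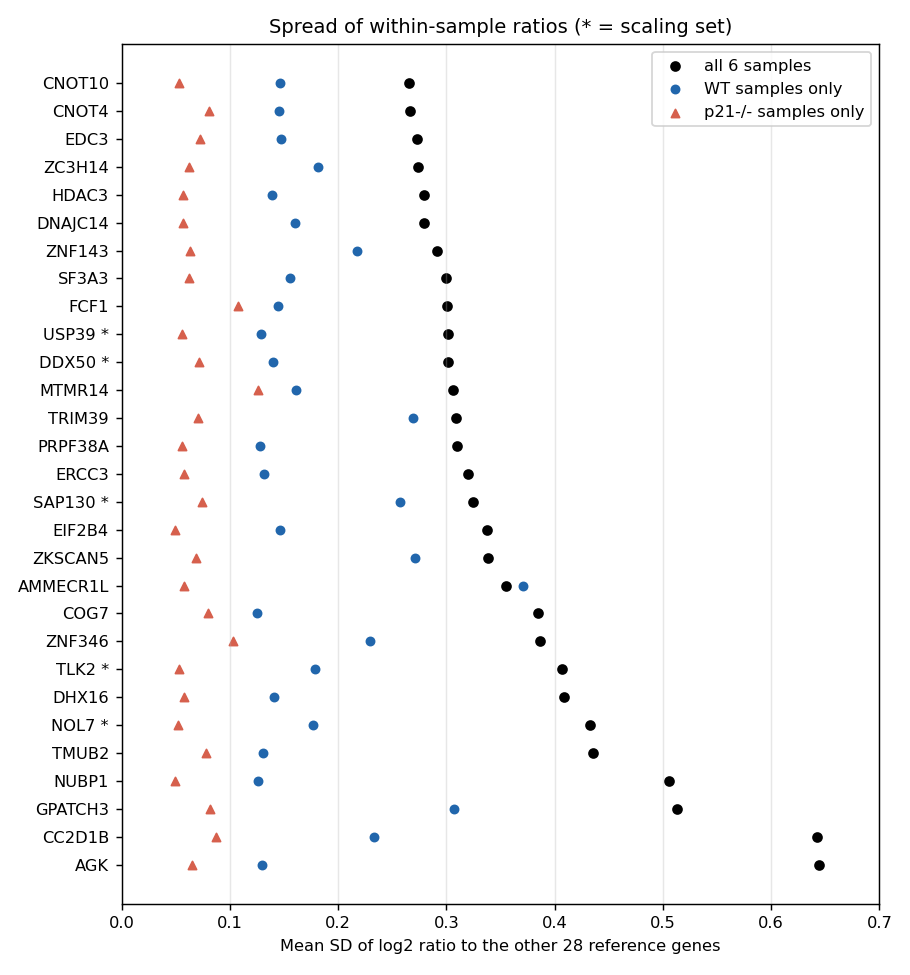
Mean SD of the log2 ratio of each reference gene to the other 28 (x axis), over all 6 samples (black circles), the 3 WT samples (blue circles) and the 3 p21-/- samples (red triangles), with genes ordered from the lowest over all samples, CNOT10 (0.266), to the highest, AGK (0.644). The values within p21-/- samples lie below those within WT samples for all genes, and the genes of the scaling set (asterisks) are spread from the middle to the lower part of the order.

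The promoters of the reference genes were looked at for letters they share. RefSeq windows on GRCh38.p14, from 250 bases before to 50 bases after an annotated start, were found for 28 of the 29 genes (47 windows) and not for COG7. The sequence CCGGAAG, a form of the core that ETS factors bind, read on both strands, was in at least 1 window of 13 of the 28 genes, 46.4%, against 8.13% of 529 other genes of the panel and 12.2% of 27305 genes. Over windows the shares were 31.9%, 5.48% and 10.3%. ACTACAA, part of the element bound by ZNF143, was in 17.9% of the genes against 3.02% and 3.43%, and TATAAA, the core of a TATA box, in 1 gene, ZC3H14, 3.57%, against 20.8% and 14.0%. CCAAT was in 60.7% against 41.4% and 39.7%, and GGGCGG, to which SP1 binds, in 67.9% against 71.3% and 48.3%. The remaining letters searched, GCGCATGCG and AAGATGGCG, were in 7.14% against 1.70% and 2.34%, and in 3.57% against 1.89% and 2.14%. Matches of different letters searched may overlap at their ends. The median GC content of the windows was 62.7%, against 62.0% in the rest of the panel. A match is a description of the sequence and does not show that a factor binds there.

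Of the 13 genes with CCGGAAG 8 were called higher, NOL7 lower and 4 not called, a split close to the 62.1% higher and 10.3% lower of all 29. The 150 bases before the start are given for the genes of the 3 steadiest ratios, PRPF38A with ERCC3, EDC3 with DNAJC14 and SF3A3 with ERCC3, and for AGK, which fell most. Capitals mark the letters searched and found here on either strand, which were CCGGAAG, the SP1 letters GGGCGG, and in DNAJC14 also CCAAT. ERCC3 is at chr2:127294145-127294294 on the minus strand, PRPF38A at chr1:52404452-52404601 on the plus strand, SF3A3 at chr1:37990023-37990172 and EDC3 at chr15:74696025-74696174 on the minus strand, DNAJC14, which has a pair of annotated starts, at chr12:55829588-55829737 and chr12:55830528-55830677 on the minus strand, and AGK at chr7:141551260-141551409 on the plus strand, each written 5′ to 3′ towards its start.
ERCC3: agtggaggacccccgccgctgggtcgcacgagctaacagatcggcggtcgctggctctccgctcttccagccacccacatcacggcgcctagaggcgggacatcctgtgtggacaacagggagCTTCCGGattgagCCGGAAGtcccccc
PRPF38A: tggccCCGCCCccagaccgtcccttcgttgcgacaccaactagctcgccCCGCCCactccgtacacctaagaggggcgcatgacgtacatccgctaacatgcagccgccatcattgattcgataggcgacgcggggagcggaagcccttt
SF3A3: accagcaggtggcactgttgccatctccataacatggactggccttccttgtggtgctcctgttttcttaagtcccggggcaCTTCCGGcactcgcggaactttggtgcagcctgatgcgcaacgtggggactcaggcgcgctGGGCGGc
EDC3: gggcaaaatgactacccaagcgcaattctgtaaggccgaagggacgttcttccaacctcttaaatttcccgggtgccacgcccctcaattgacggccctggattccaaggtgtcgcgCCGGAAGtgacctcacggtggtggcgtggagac
DNAJC14, first window: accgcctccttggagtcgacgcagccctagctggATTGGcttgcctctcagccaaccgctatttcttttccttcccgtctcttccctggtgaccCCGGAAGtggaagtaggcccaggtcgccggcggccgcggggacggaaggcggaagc
DNAJC14, second window: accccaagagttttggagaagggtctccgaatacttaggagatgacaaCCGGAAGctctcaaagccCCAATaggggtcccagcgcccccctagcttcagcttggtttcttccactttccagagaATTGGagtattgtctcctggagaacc
AGK: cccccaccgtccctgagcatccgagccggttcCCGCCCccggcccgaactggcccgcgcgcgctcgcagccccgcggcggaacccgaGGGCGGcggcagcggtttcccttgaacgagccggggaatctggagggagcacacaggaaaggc
In the orientation printed, ERCC3 carries CCGGAAG and its reverse complement, SF3A3 the reverse complement alone, and EDC3 and each DNAJC14 window CCGGAAG itself. PRPF38A carries the reverse complement of GGGCGG and AGK carries GGGCGG in each orientation, with no CCGGAAG in either stretch. The steadiest pair, PRPF38A and ERCC3, had none of the searched letters in common here, whereas the next, EDC3 and DNAJC14, and SF3A3 and ERCC3 had CCGGAAG in common. PRPF38A with EIF2B4, a pair with nearly the same SD as SF3A3 with ERCC3, had no CCGGAAG in any window.

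Genes of the same functions that are not reference genes were taken from lists of general knowledge. Of 40 listed genes of RNA processing and translation 8 were in the table, and 1 was called higher, 4 lower and 3 not at all, with a median log2 fold change of -0.23. ESRP1, an epithelial splicing regulator, fell from 9434 ± 706 to 2730 ± 165 normalized counts (SD, n = 3 per line), and EIF4EBP1, which holds back the cap-binding protein eIF4E, from 4895 ± 232 to 1838 ± 47.9. Of 38 genes of chromatin and transcription 10 were in the table, with 4 called higher, 3 lower and 3 not called, and a median of 0.16. GTF2I, a general transcription factor, rose from 3633 ± 259 to 6453 ± 222 and MYC fell from 8026 ± 1599 to 6032 ± 311. The fall of MYC was small (log2 fold change -0.39, limma adjusted p = 0.0128), with WT replicate 1 inside the p21-/- range. Of 24 genes of membrane trafficking 4 were in the table, with 2 lower (AP1M2 and RAB25) and 2 not called. Of 25 reference genes in common laboratory use 2 were in the table. PGK1, a glycolytic enzyme, had 15222 ± 3583 in WT and 14634 ± 216 in p21-/- samples (log2 fold change -0.03, 95% interval -0.30 to 0.24, adjusted p = 0.851), and LDHA, lactate dehydrogenase A, had 35072 ± 13970 and 47711 ± 1100 (log2 fold change 0.53, adjusted p = 0.0416), with WT samples that overlapped the p21-/- samples in both genes. Without WT replicate 2 the log2 fold changes were -0.20 for PGK1 and 0.20 for LDHA, and neither passed (adjusted p = 0.0505 and 0.0808), while without WT replicate 1 they were 0.14 and 0.81. With scaling to all 29 reference genes PGK1 was called lower (-0.42, adjusted p = 0.0167) and LDHA did not pass (0.14, adjusted p = 0.575).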

How the data were processed

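Total RNA of 6 samples, 3 per line, was hybridized to the NanoString panel. The deposited gene values are a signal: counts that the authors multiplied by 1 factor per sample in nSolver 3.0 (positive control and housekeeping normalization, per the labels), with low values replaced by a floor equal to the negative controls' mean plus 2 SD in that sample. The 6 positive and 8 negative control entries were deposited as raw counts. Barcode counts were obtained by dividing values by the factor that made values under 500 and above the floor whole within 0.1 count.

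Samples were grouped by their deposited labels. The lines were compared on the log2 scale after adding a pseudocount of 1, by limma (version 3.58.1, R 4.3.3), fitting all 770 genes without filter or covariate and moderating variances along an intensity trend (lmFit, then eBayes). Tests were two-sided, adjusted by Benjamini-Hochberg, with a threshold of 0.05. The fit was tested on simulated data. Alternatives were other pseudocounts, a filter, scalings, variance models, the replicate number as a block and leaving out each sample. Background subtraction and scaling to 4 of the 5 genes of constant mean were added after seeing the data. The reference genes, the lists and the tests were chosen with earlier results of these data known. The named genes rule allowed every reference gene, with values by sample for those of largest change, extreme ratio spread, constant mean or highest level in their functional group. All 29 symbols matched the RefSeq gene table.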

Additional observations from a re-analysis of the deposited data

How the results depend on the processing

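The scaling moved the median of the reference genes most. Their log2 fold change, 0.40 at the median as deposited, was 0.0168 with scaling to all 29 genes, 0.61 with quantile normalization, 0.73 with median scaling, 0.80 with barcode counts without scaling and 1.40 with positive control scaling. The count called higher, 18, was 10 with scaling to all 29. The count called lower, 3, was 8 with scaling to all 29, 1 with median scaling, 5 when NOL7 was left out of the scaling set, and 0 by limma with positive control scaling and with barcode counts. Of all 770 genes 368 passed as deposited, against 627 with scaling to all 29, 665 with positive control scaling and 591 with background subtraction. With background subtraction 420 of all genes were called lower, against 200 as deposited. These totals include the 324 genes with a floor value, which the settings move as well. They are therefore not a count of detected genes that changed. The median spread of ratios, 0.320, was 0.147 within WT and 0.0630 within p21-/- samples.

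Of 696 recomputed changes of single reference genes (29 genes, 24 settings), 609 kept direction and side of the threshold, 31 lost the call, 32 gained it and 24 changed sign, all of these 24 under another scaling. With scaling to all 29 the log2 fold changes that turned were ZC3H14 -0.0285, TRIM39 -0.0857, ZNF143 -0.11, AMMECR1L -0.14, HDAC3 -0.14, SAP130 -0.17, DDX50 -0.27 and USP39 -0.27. With median scaling they were COG7 0.17, TLK2 0.13, NOL7 0.0676 and TMUB2 0.0396, and with quantile normalization COG7 0.0745 and TMUB2 0.0568. With barcode counts they were COG7 0.24, TLK2 0.20, NOL7 0.14 and TMUB2 0.11, and with positive control scaling COG7 0.84, TLK2 0.80, NOL7 0.74, TMUB2 0.71, CC2D1B 0.29 and AGK 0.27. A scaling by 1 factor per sample shifts all reference genes by about the same amount, which does not hold for quantile normalization.

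Leaving out each sample in turn gave 18 to 24 reference genes called, 16 to 19 higher and 2 to 5 lower, a median log2 fold change of 0.34 to 0.42, a median spread of 0.300 to 0.329, a log2 fold change of CDKN1A of -3.56 to -3.33, and 332 to 395 of all genes called. The 5 lower came without WT replicate 1. The replicate numbers were not found to pair the samples, with correlations of 0.0757, -0.0544 and 0.0524 between same-numbered samples, and with the replicate block 20 reference genes and 363 of all genes were called. The count-model tests listed as alternatives were not run, because whole counts could not be recovered for floor values.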
